A study of Mus musculus with 6 samples.

Results

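The genes described here are 9 members of the plasminogen activator system and of the pathway that starts blood clotting, measured in mouse osteoblasts treated with corticosterone. They were taken by gene symbol, all 9 had a row, and they stand among 24016 genes in the table. They are the activators *Plat* and *Plau*, the receptor *Plaur*, the serpins *Serpine2* and *Serpinf1*, the clearance receptor *Lrp1*, tissue factor (*F3*) with its inhibitor *Tfpi*, and thrombomodulin (*Thbd*).

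MC3T3-E1 subclone 4 is a preosteoblast line from mouse calvaria, and all libraries came from this WT line. Osteoblast differentiation was driven by ascorbic acid and β-glycerophosphate over 6 days, after which wells received Vehicle (3 libraries) or 100 nM corticosterone (3 libraries) for 24 h. The labels give calcitriol (10 nM) in a treatment text that is the same for all 6 libraries. The design calls the 3 libraries of each group biological replicates but does not say which cultures they came from, so p-values measure the spread between these libraries.

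Tissue-type plasminogen activator (*Plat*) and urokinase (*Plau*) cut plasminogen into plasmin, a protease that dissolves fibrin and cleaves matrix proteins. Urokinase works at the cell surface on its receptor, serpins trap the activators or thrombin, and LRP1 takes up the trapped complexes. Tissue factor starts clotting together with factor VII, and thrombomodulin turns thrombin towards activation of protein C. Osteoblasts are known to secrete plasminogen activators, and plasmin formed at their surface can cut matrix and free growth factors held in it.

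Corticosterone went with lower levels of both activators, of *Serpine2* and of *Thbd*, and with higher levels of *F3* and *Lrp1*. *Plat* fell most, to 0.480 times its vehicle mean, and *F3* rose most, to 1.80 times. *Plaur*, *Serpinf1* and *Tfpi* did not pass the test. In bulk RNA a lower level per cell and fewer cells of a given state cannot be told apart. Values are normalized counts, meaning reads on a gene divided by the size factor of its library, and a gene is said to have risen or fallen where limma gave an adjusted p under 0.05 over all genes.

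By this rule 2 of the 9 members rose and 4 fell, beside 8.49% of all genes that rose and 8.20% that fell. Genes with many reads pass more often, and among the 10558 genes with a mean normalized count of at least 100, as all 9 members have, 17.1% rose and 15.5% fell. The study's threshold also asks for an absolute log2 fold change over 1. It was passed by 1 member, *Plat*, in the lower direction, beside 1.40% of all genes, and by 0 members in the higher direction, beside 1.38%. No treated value fell within the span of the control values in 7 of the 9 members, beside 29.6% of all genes and 49.0% of those with a mean of at least 100. With each library scaled to the same total, 1703 of all genes rose and 2521 fell in place of 2040 and 1970, and the same members rose and fell.

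**Figure D1:**
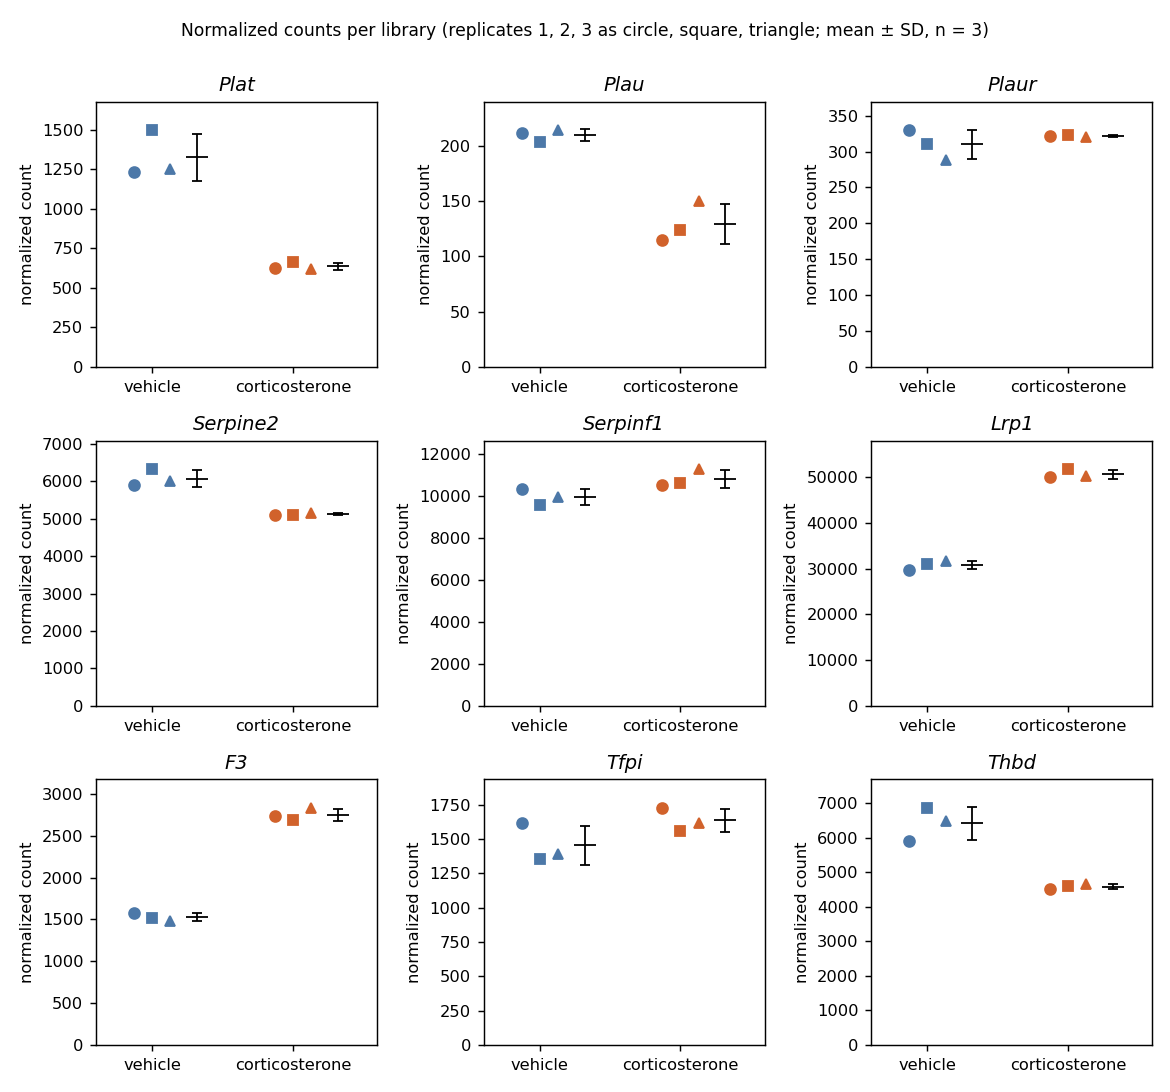
Normalized count (y axes, from 0) of each of the 9 genes in the 3 vehicle (blue) and 3 corticosterone (orange) libraries, with the mean ± SD beside the points. *Plat*, *Plau*, *Serpine2* and *Thbd* lie lower in all 3 corticosterone libraries, *Lrp1*, *F3* and *Serpinf1* lie higher, and the groups of *Plaur* and *Tfpi* overlap.

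The promoters of *F3* and *Lrp1*, the members that rose, are shown beside that of *Plaur*, which did not pass the test. Each runs from 250 bases before the start site to 50 bases into the gene, 5′ to 3′ on the gene's strand, from RefSeq on GRCm38.p6. Capitals mark matches to the letters of an AP-1 site, TGANTCA, which reads alike on both strands. AP-1 sites are known in the tissue factor promoter.
F3 (chr3:121723287-121723586, plus strand): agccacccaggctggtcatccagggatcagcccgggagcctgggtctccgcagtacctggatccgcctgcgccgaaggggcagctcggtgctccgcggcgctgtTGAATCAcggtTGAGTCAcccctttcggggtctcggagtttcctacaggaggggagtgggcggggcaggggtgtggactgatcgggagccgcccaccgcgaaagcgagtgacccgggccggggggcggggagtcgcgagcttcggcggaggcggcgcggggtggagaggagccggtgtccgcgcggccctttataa
Lrp1 (chr10:127621099-127621398, minus strand): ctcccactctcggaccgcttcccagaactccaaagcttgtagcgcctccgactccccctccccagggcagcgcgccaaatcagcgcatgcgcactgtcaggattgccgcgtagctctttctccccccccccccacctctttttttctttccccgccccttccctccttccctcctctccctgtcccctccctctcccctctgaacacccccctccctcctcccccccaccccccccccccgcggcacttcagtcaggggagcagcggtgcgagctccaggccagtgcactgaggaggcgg
Plaur (chr7:24462233-24462532, plus strand): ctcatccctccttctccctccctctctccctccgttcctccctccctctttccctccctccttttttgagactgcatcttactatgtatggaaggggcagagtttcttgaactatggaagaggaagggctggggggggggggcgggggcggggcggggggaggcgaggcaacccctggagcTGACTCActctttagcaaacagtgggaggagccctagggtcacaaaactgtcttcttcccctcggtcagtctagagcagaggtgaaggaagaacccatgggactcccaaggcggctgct

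*F3* has 2 such matches, which begin 146 and 135 bases before the start site, and *Plaur* has 1, at 69 bases before it. The promoters of *Lrp1*, *Serpine2*, *Serpinf1* and *Tfpi*, the last at either of its start sites, have 0. Of 32851 promoters of this length, 7.81% hold a match. RefSeq entries were found for 6 of the 9 genes (*Serpine2*, *Serpinf1*, *Plaur*, *Lrp1*, *F3* and *Tfpi*, the last with a pair of start sites), not for *Plat*, *Plau* and *Thbd*. The glucocorticoid receptor half-site AGAACA, searched on both strands, was in 0 of these 7 promoters and in 19.0% of all. The whole palindrome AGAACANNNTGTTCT, which contains the half-site on each strand, was in 0 of the 7 and in 0.00913% of all. The GC box letters GGGCGG on either strand were in 35.7% of all promoters, with 6 matches in that of *Serpine2*, 3 each in *F3* and *Plaur*, 1 in *Lrp1*, 1 in each of the *Tfpi* promoters and 0 in *Serpinf1*. The planned motif count covered the half-site only, and the palindrome, AP-1 site and GC box were added to it.

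*Plat* (chromosome 8, 22757727 to 22782844, plus strand, coordinates of GRCm38 here and for the other genes) has 14 exons in its longest coding transcript. Its normalized counts were 1229, 1497 and 1253 with vehicle and 626, 663 and 622 with corticosterone, means of 1326 ± 148 and 637 ± 22.4 (SD, n = 3 each). All treated libraries were far below all vehicle libraries, and the second vehicle library stood above the other two. On the log2(value + 0.1) scale, used for all fold changes here, the difference was -1.05 ± 0.07 (SE, limma adjusted p = 1.5e-08) and its 95% interval ran from -1.20 to -0.90. Without the second vehicle library it was -0.96, so that *Plat* still fell but no longer passed the study's threshold.

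*Plau*, the urokinase gene, lies on chromosome 14, 20836660 to 20843385. It had the fewest reads of the 9 genes, 107 to 263 per library. Vehicle libraries had normalized counts of 212, 203 and 214 and corticosterone libraries 115, 124 and 150, so the groups did not overlap and the third corticosterone library was nearest to vehicle. It fell by 0.71 ± 0.12 (SE) on the log2 scale, with a limma adjusted p of 3.8e-04. Of a list of 8 myeloid markers 5 were measured, while *Ptprc*, *Adgre1* and *Itgam* had no row. The summed normalized count of the 5 was 445 to 517 with vehicle and 362 to 411 with corticosterone. Of these, *Lyz2* and *Fcer1g* fell, and *Cd68*, *Csf1r* and *Cd14* did not pass the test. For *Lyz2*, 32.8% of its 31-base stretches also lie in transcripts of other genes. What part the myeloid markers have in the fall of *Plau* was not tested.

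The urokinase receptor gene *Plaur* lies on chromosome 7, 24462484 to 24475968. It had normalized counts of 330, 311 and 289 with vehicle and of 322, 323 and 320 with corticosterone. The corticosterone libraries lay inside the vehicle range. The log2 fold change of 0.06 (limma adjusted p = 0.73) had a 95% interval from -0.12 to 0.23, so a change as large as that of *Plat* or *Plau* lay outside it. Within each library, the level of *Plau* relative to *Plaur*, per kb of all annotated exons as for the other ratios unless stated, was 0.709 to 0.820 with vehicle and 0.393 to 0.517 with corticosterone, without overlap.

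*Serpine2* encodes protease nexin-1, a serpin that blocks thrombin, urokinase and tissue-type activator, and lies on chromosome 1, 79794197 to 79861180, on the minus strand. Normalized counts were 5889, 6326 and 5997 with vehicle and 5108, 5088 and 5144 with corticosterone. All 3 corticosterone libraries were lower and lay close together, with an SD of 28.3 against 227 with vehicle. It fell by 0.25 ± 0.04 (SE) on the log2 scale, the smallest change among the 6 members that passed, with a limma adjusted p of 2.9e-04, which was 0.089 without a variance trend. The level of *Plat* per length relative to *Serpine2* was 0.277 to 0.314 with vehicle and 0.160 to 0.173 with corticosterone, without overlap.

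*Serpinf1* (chromosome 11, 75409769 to 75422701) encodes pigment epithelium-derived factor, which has the serpin fold but is not known to inhibit proteases, and whose loss causes a form of brittle bone disease. In vehicle libraries the normalized counts were 10330, 9601 and 9945, and with corticosterone they were 10514, 10611 and 11297. The groups did not overlap, yet the lowest corticosterone library was only just above the highest vehicle library. The log2 fold change of 0.12 ± 0.04 (SE) missed the rule with a limma adjusted p of 0.069, while DESeq2 gave an adjusted p of 0.026 and edgeR 0.038 on the whole reads behind the values. It was 0.08 with each library scaled to the same total and 0.04 with quantile normalization.

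The gene of the LDL receptor-related protein, *Lrp1*, lies on chromosome 10, 127538161 to 127621148, and its longest coding transcript has 89 exons. LRP1 takes up complexes of activators with serpins, and many other ligands. The normalized counts were 29744, 30975 and 31554 with vehicle and 49904, 51731 and 50097 with corticosterone, so the lowest treated library was far above the highest vehicle library. It rose by 0.72 ± 0.04 (SE) on the log2 scale, with a limma adjusted p of 9.1e-10 and at least 30506 reads per library. *Gm16217*, which lies on the opposite strand within *Lrp1* and shares 0 exon bases with it, had 13 reads in all. The level of *Lrp1* per length was 7.29 to 8.87 times that of *Plat* with vehicle and 27.5 to 28.4 times with corticosterone.

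*F3* encodes tissue factor, the membrane protein that starts clotting, and lies on chromosome 3, 121723537 to 121735048. Libraries with vehicle had normalized counts of 1580, 1517 and 1482 and those with corticosterone 2732, 2687 and 2832. All 3 treated libraries were well above all vehicle libraries. The rise of 0.85 ± 0.05 (SE) on the log2 scale had a limma adjusted p of 1.3e-09, and its 95% interval ran from 0.75 to 0.95. It stayed between 0.83 and 0.88 when any single library was left out.

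*Tfpi* encodes the inhibitor of tissue factor and factor Xa and lies on chromosome 2, 84432855 to 84476775. Its normalized counts were 1613, 1355 and 1391 with vehicle and 1726, 1561 and 1618 with corticosterone, and the first vehicle library lay among the treated ones. Its log2 fold change of 0.17 ± 0.06 (SE) had a limma adjusted p of 0.083, which was 0.014, at a log2 fold change of 0.25, without the first vehicle library. The limma adjusted p was 0.030 with the replicate number as a block. The annotation holds 8 coding transcripts of *Tfpi*, whose isoforms cannot be told apart in a count per gene. The ratio of *F3* to *Tfpi* per length was 2.12, 2.42 and 2.30 with vehicle and 3.42, 3.72 and 3.78 with corticosterone. Every treated library had a higher ratio than any vehicle library.

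*Thbd*, a gene of 1 exon on chromosome 2, 148404466 to 148408188, encodes thrombomodulin, the thrombin receptor best known from endothelium. Its normalized counts were 5911, 6868 and 6486 with vehicle and 4521, 4594 and 4650 with corticosterone. The treated libraries were all lower and lay close together. *Thbd* fell by 0.48 ± 0.05 (SE) on the log2 scale, with a limma adjusted p of 2.1e-06. Of 8 endothelial markers 5 were measured and were near the floor of detection apart from *Vwf* (22 to 46 reads per library), with at most 9 reads for *Pecam1*, 6 for *Tek*, 4 for *Tie1* and 2 for *Emcn*, and 0 of the 5 rose or fell. Their summed normalized count was 22.8 to 50.3 with vehicle and 39.8 to 55.0 with corticosterone. Relative to *Thbd*, the level of *F3* per length was 0.326 to 0.394 with vehicle and 0.862 to 0.897 with corticosterone.

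**Figure D2:**
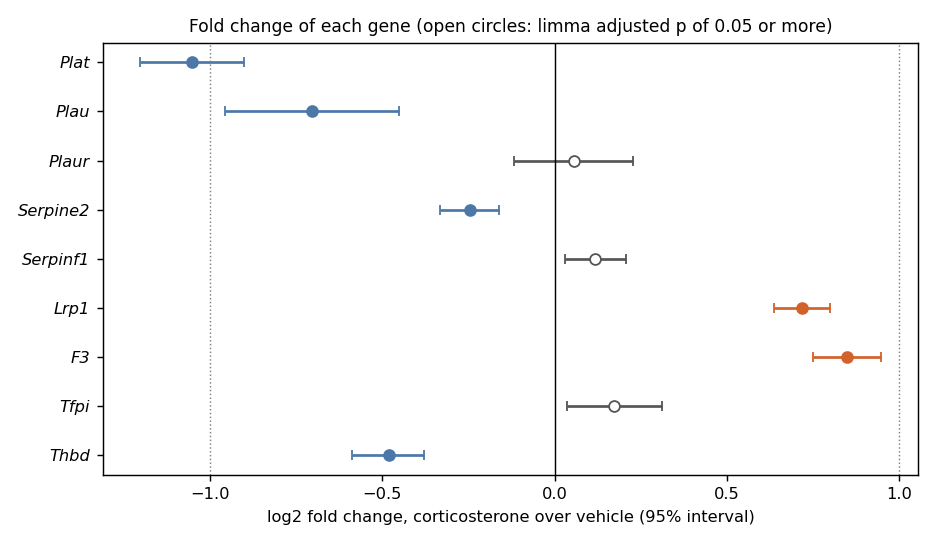
Log2 fold change of corticosterone over vehicle (x axis) for each gene, with the 95% interval of limma, not adjusted for the number of genes. Filled points have a limma adjusted p under 0.05, dotted lines mark a log2 fold change of 1 in either direction, and *Plat*, at -1.05, is the one gene beyond a dotted line.

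In the 7 genes whose groups did not overlap, a two-sided exact permutation test over libraries gave p = 0.1, the smallest that 3 against 3 libraries allow. The exact permutation p was 0.4 for *Plaur* and 0.2 for *Tfpi*. The ratios between genes were not tested. Their size depends on the length used, while the relative change with treatment does not. By the longest coding transcript, an alternative chosen after seeing the data, the mean ratio of *F3* to *Tfpi* was 1.14 with vehicle and 1.82 with corticosterone, and that of *Lrp1* to *Plat* 3.96 and 13.5. The mean ratio of *F3* to *Thbd* was then 0.475 and 1.19, so that *F3* stood above *Thbd* with corticosterone, whereas by all exons it stood below. For *Plat* to *Plau* the means were then 5.89 and 4.63, for *Plat* to *Serpine2* 0.191 and 0.109, and for *Plau* to *Plaur* 0.436 and 0.259.

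**Figure D3:**
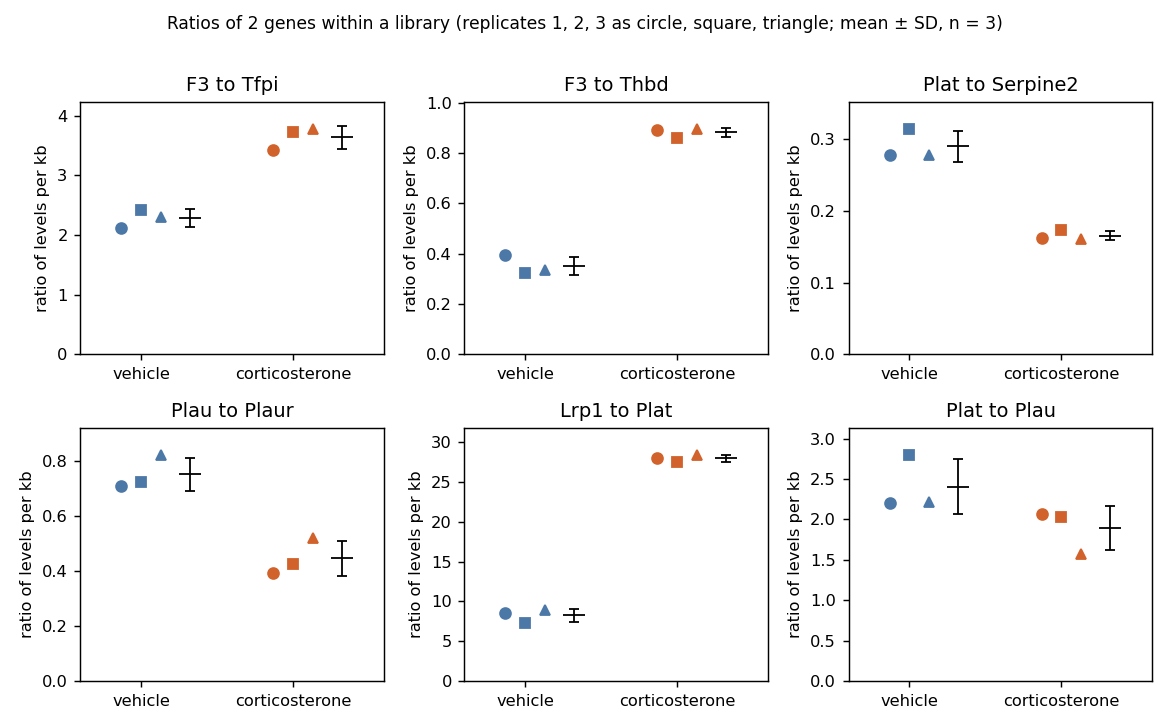
Ratio of the levels of 2 genes per kb of all annotated exons (y axes, from 0) within each of the 3 vehicle (blue) and 3 corticosterone (orange) libraries, with the mean ± SD. The ratios of *F3* to *Tfpi*, *F3* to *Thbd* and *Lrp1* to *Plat* lie higher in all treated libraries, and those of *Plat* to *Serpine2*, *Plau* to *Plaur* and *Plat* to *Plau* lie lower.

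Per kb of annotated exon, *Serpinf1* had the highest level with vehicle, a normalized count of 4222 ± 155 per kb (SD, n = 3), higher than 99.4% of genes with a known length. *Lrp1* (1736 ± 52.2) and *Thbd* (1725 ± 129) came next and did not differ beyond their spread. *Serpine2* (733 ± 27.4) and *F3* (604 ± 19.7) followed, then *Tfpi* (266 ± 25.5) and *Plat* (213 ± 23.8). *Plaur* (118 ± 7.93) and *Plau* (88.5 ± 2.47) were lowest. With corticosterone, *Lrp1* (2855 ± 56.7) and *Thbd* (1232 ± 17.4) were apart, *F3* (1088 ± 29.4) stood above *Serpine2* (617 ± 3.41), and *Plaur* (123 ± 0.567) above *Plat* (102 ± 3.59). This order depends on the length used. By the longest coding transcript *Serpine2* was second with vehicle, with 2747 per kb against 2066 for *Lrp1*. With corticosterone, *Serpine2* (2314) then stayed above *F3* (1469) and *Plat* (252) above *Plaur* (214), the reverse of the order by all exons.

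**Figure D4:**
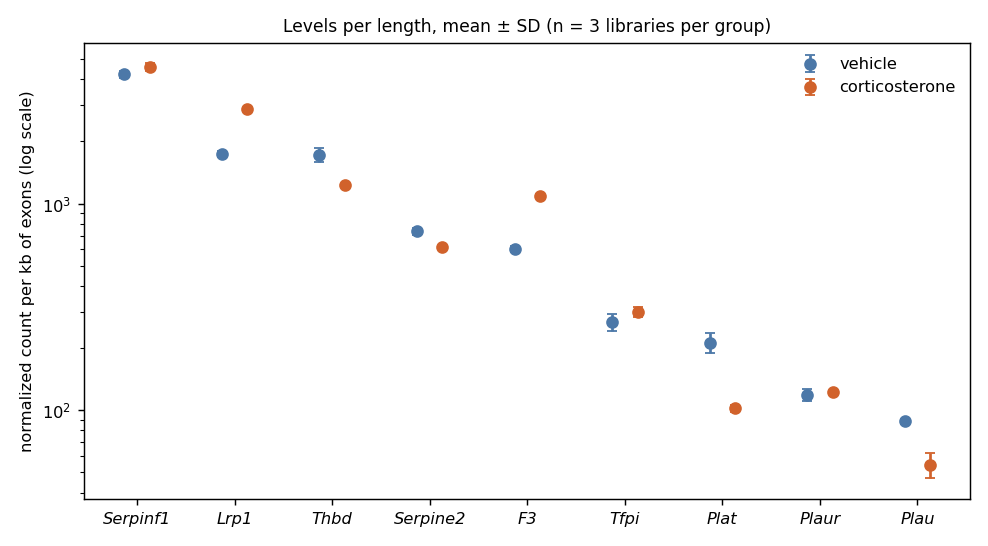
Normalized count per kb of annotated exon (y axis, log scale) as mean ± SD of 3 libraries, with the genes ordered by their vehicle level. *Serpinf1* is highest and *Plau* lowest in both groups, and *F3* lies above *Serpine2* with corticosterone by this length, but below it by the longest coding transcript.

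Around these genes, more of the receptors, inhibitors and matrix partners of plasminogen fell than rose. Of a list of 21, 17 were measured here, of which 2 rose and 7 fell, where 8.49% and 8.20% of all genes and 17.1% and 15.5% of those with a mean of at least 100 did, with a median log2 fold change of -0.19 beside -0.01 over all genes. That median is the value of *Eno1*, which did not pass the test (limma adjusted p = 0.069). For *Eno1*, 28.5% of its 31-base stretches also lie in transcripts of other genes. *Serpinf2*, *Serping1*, *Lrp2* and *Sorl1*, also counted in the median, had at most 8 reads per library. *Vldlr*, a receptor of the LDL family that also takes up activator complexes, had a mean of 200.3 ± 27.7 with vehicle and 68.3 ± 9.30 with corticosterone (SD, n = 3 each) and fell by 1.55 on the log2 scale (limma adjusted p = 9.0e-07). *Vtn*, which encodes vitronectin, fell by 0.87 on the log2 scale and the vitronectin receptor subunits *Itgb3* and *Itgav* fell by 0.62 and 0.21. The plasminogen-binding pair *S100a10* and *Anxa2* fell by 0.37 and 0.27, and *Lrpap1*, the chaperone of LRP1, by 0.18. *Mrc2*, the collagen receptor that associates with the urokinase receptor, rose by 0.32, and *Serpinb6a* by 0.27, although 28.95% of the 31-base stretches of *Serpinb6a* also lie in transcripts of another gene. *Plgrkt*, a plasminogen receptor, had a log2 fold change of -0.04 (limma adjusted p = 0.76). The gene of plasminogen itself, *Plg*, had no row, so its level in these cells is not known here. *Serpinb2*, *A2m* and *Cpb2* of this list had no row either.

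Among 26 clotting factors, receptors and anticoagulants, 17 were measured, of which 4 rose and 3 fell. Of the 17, 13 had at least 10 reads in 1 or more libraries. The median log2 fold change of 0.13 is that of *F2*, with at most 2 reads, so it gives no direction for the list. Over all genes 8.49% rose and 8.20% fell, and 17.1% and 15.5% of those with a mean of at least 100. Some of the 17 have a lower mean, so the second pair of shares covers only part of this list. The same holds for the lists of the plasminogen system, other serpins and substrates. Factor VII (*F7*), the partner of tissue factor, had a mean of 68.2 ± 8.70 with vehicle and 157 ± 20.9 with corticosterone and rose by 1.20 on the log2 scale (limma adjusted p = 2.2e-05), on 57 to 161 reads per library. *F2r*, the thrombin receptor PAR1, rose by 1.06, with means of 2718 ± 312 and 5642 ± 207 (limma adjusted p = 3.4e-09). *Procr*, the endothelial protein C receptor, rose by 0.48 (limma adjusted p = 0.018). *Ggcx*, the carboxylase that activates vitamin K-dependent factors, rose by 0.18, close to the limit of the rule (limma adjusted p = 0.047). With each library left out in turn, 2 to 3 clotting genes rose in place of 4. The subunit of the fibrin-crosslinking factor XIII, *F13a1*, fell by 0.88, with means of 1418 ± 149 and 768 ± 77.1 (limma adjusted p = 5.2e-07). *Vkorc1* fell by 0.58, with 46.0% of its 31-base stretches shared with other genes, and *Pros1* by 0.18. *F2* and *F10*, which encode prothrombin and factor X, had at most 2 reads in any library.

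Of 10 other serpins, 8 were measured, of which 3 rose and 1 fell, beside the same 8.49% and 8.20% of all genes and 17.1% and 15.5% of those with a mean of at least 100. *Serpinb6b* rose by 0.81, *Serpinb9* by 0.47 and *Serpina3n* by 2.81 on the log2 scale, the last on 1 to 14 reads per library and with 21.6% of its 31-base stretches in other genes. *Serpinb1a* fell by 0.89, with a limma adjusted p of 0.019, a call that was lost when any library but the third vehicle one was left out. The collagen chaperone *Serpinh1* had a log2 fold change of -0.003 (limma adjusted p = 0.98).

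Of 16 matrix, growth factor and protease substrates of plasmin or the activators, 15 were measured, of which 6 rose and 6 fell, with a median log2 fold change of -0.04, where 17.1% and 15.5% of genes with a mean of at least 100 and 8.49% and 8.20% of all genes did. The matrix protease gene *Mmp9* fell most, by 1.40 on the log2 scale, with means of 2733 ± 196 and 1037 ± 82.3 (limma adjusted p = 1.3e-10). Of the growth factors that plasmin or the activators can process, *Pdgfc*, whose product tissue-type activator cleaves, fell by 0.92, *Hgf* by 0.57 and *Tgfb1* by 0.29, while *Pdgfd* rose by 0.76 and *Vegfa* by 0.65. Fibronectin (*Fn1*) fell by 0.29, *Igfbp5* by 0.68, and thrombospondin (*Thbs1*) and *Ltbp1* rose by 0.59 and 0.41. *Mmp14* and *Lamc1* rose by 0.22 and 0.19.

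**Figure D5:**
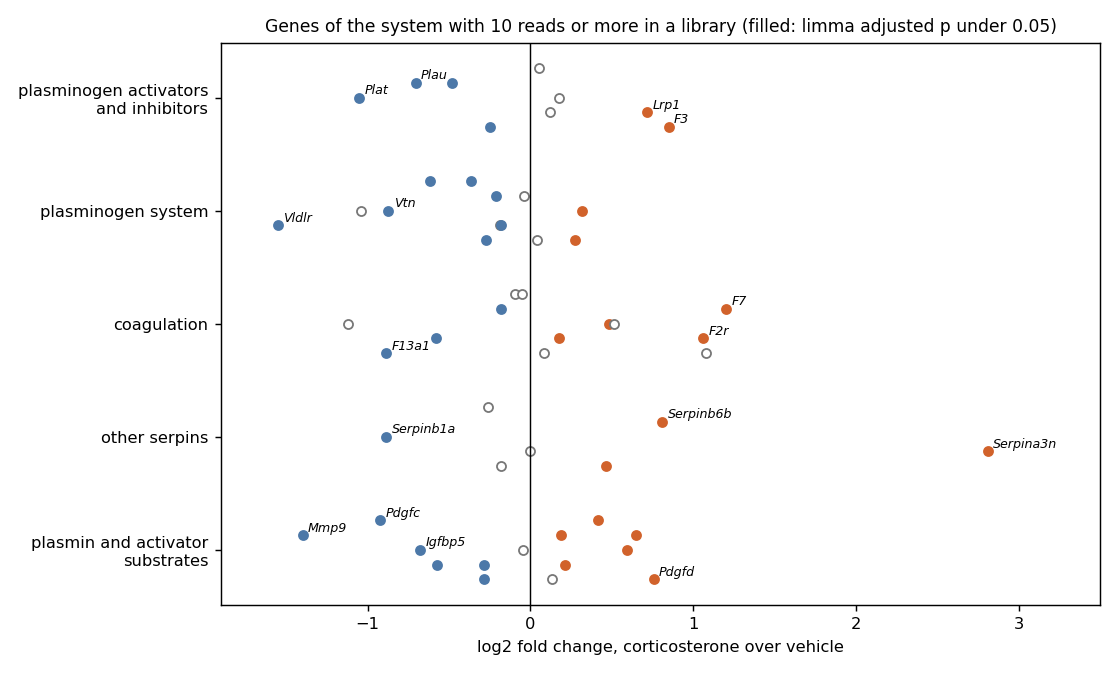
Log2 fold change (x axis) of the genes with at least 10 reads in 1 or more libraries, in 5 lists (y axis), each point 1 gene. Filled points have a limma adjusted p under 0.05 (orange higher, blue lower), and beyond the 9 genes *F7*, *F2r* and *Serpina3n* are filled points past 1, and *Vldlr* and *Mmp9* past -1.

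The 6 libraries held 16020401 to 25638645 reads on genes, and the corticosterone libraries were the shallower ones. A gene with 3 reads, taken as the floor for counting error, has a normalized count of 2.32 to 3.84. The glucocorticoid targets *Tsc22d3*, *Fkbp5*, *Per1* and *Sgk1* rose, 4 of 4. All 10 osteoblast markers were measured, with at least 48 reads per library, of which 8 fell and 1, *Spp1*, rose, and their summed normalized count was 1486070 to 1537210 with vehicle and 1287420 to 1346190 with corticosterone. Among 5 megakaryocyte markers *Itga2b* rose and *Pf4*, with at most 6 reads, fell, the sum being 449.9 to 489 with vehicle and 619 to 687 with corticosterone. Most of this sum was *Itga2b*, with means of 461 ± 19.8 with vehicle and 640 ± 35.5 with corticosterone. *Pf4*, *Gp1ba*, *Gp9* and *Ppbp* had lower means with corticosterone, on at most 17 reads per library. Of the adipocyte markers 2 of 5 were measured, of which *Fabp4* rose (14.8 ± 6.71 with vehicle, 121 ± 11.5 with corticosterone) and *Plin1* had at most 2 reads. Of 5 hepatocyte markers 1, *Apoa1*, was measured and rose (15.3 ± 2.87 and 67.7 ± 14.1). What part these markers have in the members' changes was not tested.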

How the data were processed

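RNA of 3 vehicle and 3 corticosterone libraries (NEBNext Ultra kit, Illumina sequencing) was counted per gene by the authors, who analysed it with DESeq2. The submitters' notes name the build mm10. The aligner, counter, annotation and use of strand are not given in the sources used here. The authors deposited 1 non-negative signal per gene and library, named FPKM. In each library 100% of the values were whole multiples of 1 step, within 0.1, and the step did not change with gene length, so they are counts divided by 1 size factor and are called normalized counts.

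The main test was limma 3.58.1 (R 4.3.3, variance trend) on log2(value + 0.1). Genes were to have a mean over 0.1, which removed none, and p-values were adjusted (Benjamini-Hochberg) over 24016 genes. On recovered reads, edgeR 4.0.16 (quasi-likelihood, TMM, 13871 genes) and DESeq2 1.42.0 were alternatives, beside other pseudocounts, filters, scalings, prior variances, the replicate block, thinned reads and each library left out. On simulated counts of this comparison (23723 genes, 200 changed by a log2 fold change of 2), limma recovered 188 with 1 false call, edgeR 190 with 1 and DESeq2 188 with 0.

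The 9 genes and the gene lists were chosen with earlier results of these data known. All 9 are described, and from the other lists the genes with an adjusted p under 0.05 and some that missed it, the latter chosen after their values were seen. Results of some further genes of this system are not reported here. Symbols (23983 genes), coordinates and exon lengths came from GENCODE on GRCm38. At most 1.39% of the 31-mers of any of the 9 genes lie in transcripts of another gene, either strand. Replicate numbers are shared by the groups, without a statement that they pair cultures.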

Additional observations from a re-analysis of the deposited data

How the results depend on the processing

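Of the 20 alternatives, the one without a filter equals the main test, because the filter removed no gene. Over all 20, *Plat*, *Plau*, *Thbd*, *F3* and *Lrp1* kept their direction and an adjusted p under 0.05. *Serpine2* lost it without a variance trend, and *Plaur* passed under none. The members that rose were 4 with a robust prior variance and with edgeR and the replicate block, where *Serpinf1* and *Tfpi* also passed. *Tfpi* passed in 5 of the 20 and *Serpinf1* in 5. With each library left out in turn, 0 to 1 members passed the study's threshold in the lower direction, 2 to 3 clotting genes rose (2 without vehicle replicate 1, corticosterone replicate 1 or corticosterone replicate 3) and 0 to 1 other serpins fell, where *Serpinb1a* is the one that fell. Over all genes 1148 to 1611 then fell, and 204 to 321 passed the threshold in the lower direction. The lowest counts were without the third vehicle library, which left 1148 and 204. Without the second, 220 passed. Without a variance trend, 1 plasminogen system gene rose and 2 fell, 2 clotting genes rose, 0 other serpins and 3 substrates fell, and 873 of all genes rose and 760 fell. The cause of these differences was not tested. Same-numbered libraries shared little of their deviation, with weak positive correlations over 10558 genes of 0.067, 0.088 and 0.016. Differently numbered libraries were not compared. With the replicate block in limma, 3 members rose and 4 fell, and it changed the call of no member but *Tfpi*. Over all genes, 2012 then rose and 1893 fell. Depth limits *Plau* most among the 9 genes, at 107 reads in 1 library, and small differences of genes near the floor of 3 reads were not detectable.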

Other observations

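Over the 6 libraries, 10558 genes with a mean normalized count of at least 100 were compared with the member that rose most and the one that fell most, by Pearson's r of log2 values. For *F3* the 3 highest were *Ltbp1*, *Nudt9* and *Psph*, each with r of 0.999, and log2 fold changes of 0.41, 0.21 and 1.35. For *Plat* they were *Gcnt4*, *Slc1a3* and *Zfp651*, each with r of 0.998, and log2 fold changes of -0.69, -1.03 and -0.39. With 2 groups of 3 libraries, r over 0.95 was reached by 948 genes for *F3* and 656 for *Plat*, so such values are common among genes that separate the treatments, and the libraries share their depth and size factors.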
